A study of Mus musculus with 9 samples.

Results

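The genes described here are 8, chosen by name for their place in core binding factor leukaemia and not by a threshold on these values: Cbfb, Myh11, the 3 RUNX genes Runx1, Runx2 and Runx3, and the 3 ETO family genes Runx1t1, Cbfa2t2 and Cbfa2t3. They are 8 of the 43629 genes in the deposited table, and each of the 8 was found there under 1 Ensembl identifier. RNA-seq was done on bone marrow cells selected for c-KIT (CD117), the stem cell factor receptor of blood stem and progenitor cells, from mice labelled C57BL/6, with 3 libraries in each of 3 groups. WT mice carried no allele named in their label. KI mice carried Mx1-Cre and Cbfb+/56M, a conditional allele of the CBFB-MYH11 fusion. KI_Chd7del mice carried the same alleles and Chd7f/f, floxed copies of the chromatin remodeller gene Chd7. All mice had been given pIpC, an RNA-like inducer of interferon that switches on the Mx1 promoter and with it Cre, in any cell that responds to interferon. The WT label names no Cre, so effects of Cre and of the fusion cannot be told apart. The labels give neither the age of the mice, nor the time since pIpC, nor whether libraries of 1 group are from different animals, and p-values therefore reflect only how far these libraries spread.

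Core binding factor is a transcription factor made of 1 DNA-binding RUNX protein and the beta subunit encoded by Cbfb, which binds no DNA itself and steadies the RUNX protein on its site. Runx1 is needed for the first blood stem cells and for platelet and lymphocyte formation, Runx2 for bone, and Runx3 for T and NK cells. In acute myeloid leukaemia with inversion of chromosome 16, CBFB is joined to the tail of MYH11, the smooth muscle myosin heavy chain. In another core binding factor leukaemia, RUNX1 is joined to RUNX1T1 (ETO), which with CBFA2T2 and CBFA2T3 forms a family of corepressors that recruit histone deacetylases.

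The RUNX genes share a short sequence at their distal promoters, and it is shown here because RUNX levels are the measurement that follows. RefSeq promoter windows on GRCm38.p6, from 250 bases before to 50 bases after a start, were found for 6 of the 8 members, with 9 windows in all; Myh11 and Runx1t1 had none in the table used. The core of the RUNX site, ACCACA or its complement TGTGGT, was searched on both strands. It occurred in 16.8% of the 32851 windows of the table, and at 2 or more places in 1.81% of them. Among the members it occurred at 2 places in a window of Runx1, at 3 in that of Runx2 and at 2 in a window of Runx3, and in none of the other 6 windows. In each of these 3 windows 2 of the copies stand in tandem within the 18 bases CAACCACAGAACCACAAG, the longest stretch that the 3 have in common, printed in capitals below with neighbouring bases, 5′ to 3′ on the strand of the gene. The 18 bases were found after the windows had been read.
Runx1: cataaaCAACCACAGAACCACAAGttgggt
Runx2: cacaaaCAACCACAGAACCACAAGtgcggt
Runx3: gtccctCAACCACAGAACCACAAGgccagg
The stretches lie at chr16:92826025-92826054, chr17:44814583-44814612 and chr4:135120503-135120532, on the minus strand for Runx1 and Runx2 and the plus strand for Runx3. The 18 bases begin 26 and 21 bases after the annotated start of Runx1 and Runx2 and 136 bases before that of Runx3. In the whole table they occurred in 4 windows, those of the 3 RUNX genes and that of Gm16225, whose window overlaps the Runx3 one on the other strand. The second window of Runx1 and that of Runx3, at their proximal promoters, held no match. A match is a description of letters and not of binding, and the values below are sums over each whole gene that do not separate its promoters.

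The table holds 1 normalised value per gene and library, that is, read numbers divided by a size factor and rounded. Values summed to between 37538447 and 46159426 per library, and size factors estimated from gaps among low values were 0.852 to 1.19, which gives about 39300000 to 47500000 reads, so that a value of 1 stands for about 1 read. The 15997 genes that reached 10 in 3 or more libraries were tested with limma on log2(value + 1), with p-values adjusted by Benjamini-Hochberg over all of them. All 8 members passed this minimum, but Myh11 and Runx1t1, under 10 in each WT library, passed it only through the mice with the fusion allele, and for these 2 a difference from WT was thus built into the selection. Markers of the labelled cell type were present: Kit, Myb, Cd34 and the pan-leukocyte gene Ptprc were at 2274 or above in each library. The rest of that list, Hlf and Mecom, ran from 667 to 3541 and from 46 to 285. Chd7 was at 3471 to 3982 for WT, 1979 to 2934 for KI and 1794 to 1921 for KI_Chd7del. It was lower than in WT by 0.72 on the log2 scale in KI (adjusted p = 0.00154), whose Chd7 is not floxed, and by 1.00 in KI_Chd7del (adjusted p = 0.000374). Its difference between KI_Chd7del and KI was -0.29 (SE 0.14, adjusted p = 0.121 with limma), a weak check of the label, since a sum over the whole gene does not reveal whether an internal exon is lost.

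**Figure D1:**
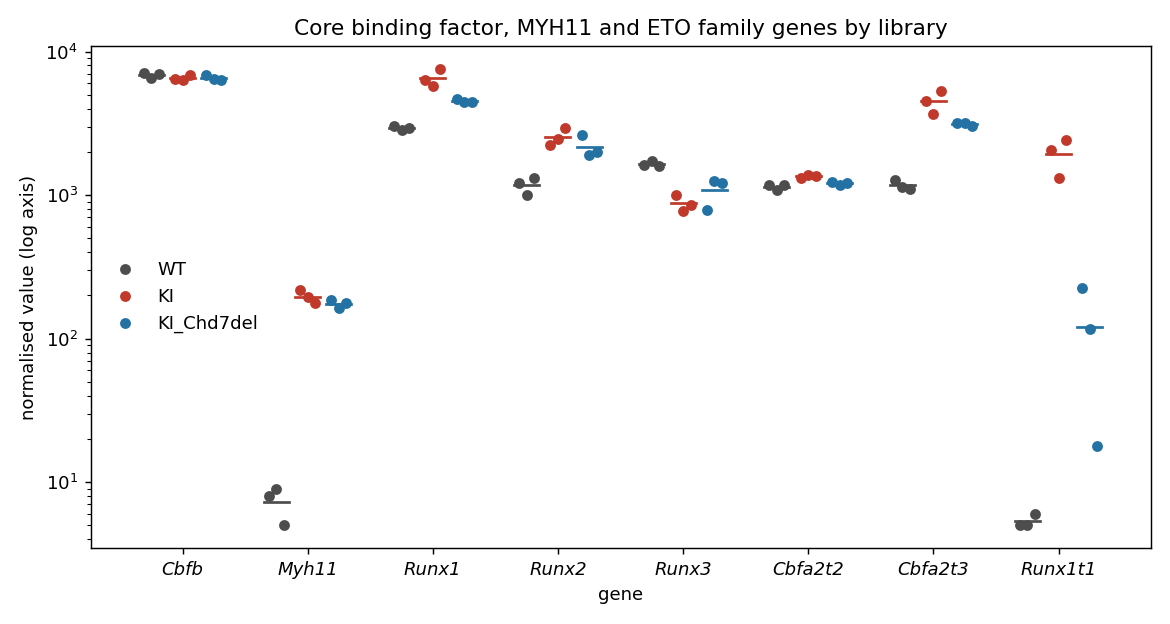
Normalised values (log axis) of the 8 genes in each library, with 3 points per group and a bar at the group mean. Cbfb lies between 6341 and 7136 in all 9 libraries, while Runx1t1 runs from 5 or 6 in WT to 2429 in KI library 3.

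With the fusion allele, the expression of the core binding factor and ETO family shifted in 3 ways. Cbfb itself stayed within a narrow range. Runx1, Runx2 and Cbfa2t3 rose and Runx3 fell. Runx1t1, at 5 or 6 in WT, was higher by a factor of 362 on average. When Chd7 was floxed as well, Runx1, Cbfa2t3 and above all Runx1t1 were lower than in KI, while Myh11 did not pass the test between them.

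Cbfb (ENSMUSG00000031885, chromosome 8, 105170674 to 105217989, GRCm38) stood at 7136, 6535 and 6930 in the WT libraries, at 6449, 6349 and 6910 in those of KI, and at 6865, 6413 and 6341 in those of KI_Chd7del. The 3 groups overlapped. Its log2 difference was -0.06 in KI against WT (adjusted p = 0.351), -0.01 in KI_Chd7del against KI (adjusted p = 0.936) and -0.07 in KI_Chd7del against WT (adjusted p = 0.327), each with an SE of 0.06 in limma. These directions depended on the scaling of the libraries. Scaled to the column total, Cbfb stood at 0.17 in KI against WT and passed the test in KI_Chd7del against WT at 0.18 (adjusted p = 0.0488), while with upper-quartile factors it passed in KI against WT at -0.16 (adjusted p = 0.0462). One value per gene does not separate reads of the normal allele from reads of Cbfb exons in the fusion.

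Myh11 (ENSMUSG00000018830, chromosome 16, 14194535 to 14291372) stood at 8, 9 and 5 in the WT libraries, at 219, 194 and 176 in those of KI, and at 187, 164 and 176 in those of KI_Chd7del. Each library with the fusion allele lay far above each WT library, by a mean of 26.8-fold in KI and 24-fold in KI_Chd7del. The log2 difference from WT was 4.59 in KI (SE 0.22) and 4.44 in KI_Chd7del (SE 0.22). With a pseudocount of 16 in place of 1 these became 3.18 and 3.04. Myh11 passed the filter only through the groups with the fusion allele. Its differences from WT were thus built into the selection, and their p-values are not given. KI_Chd7del and KI overlapped and differed by -0.16 (SE 0.22, adjusted p = 0.591 with limma). Per kilobase of annotated exon, Myh11 reached 1.37% ± 0.196 of Cbfb in KI and 1.23% ± 0.0522 in KI_Chd7del (SD, n = 3), against 0.0492% ± 0.0151 in WT. The labels do not say of which species the MYH11 part of the allele is, and the share of fusion transcripts was not derived from these values.

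The rise of Myh11 was set beside other muscle and myosin genes. Of 10 smooth muscle markers, Des, Lmod1 and Actg2 were at 0 to 2 in each library, and the summed level of the list ran from 2142 to 2458 in WT, from 1360 to 1633 in KI and from 1576 to 2112 with Chd7 floxed. Most of that sum was Smtn, smoothelin, at 1629 to 1719 in WT and 632 to 935 in KI. Of the 7 tested markers 3 were higher in KI against WT (Cnn1, Mylk and Synpo2) and 2 were lower (Smtn and Acta2), with a median log2 difference of 0.44. Within the list Cnn1, a calponin of smooth muscle, went from 10, 4 and 2 in WT to 67, 66 and 83 in KI, whereas Acta2, smooth muscle actin, went from 177, 375 and 349 to 131, 113 and 114. Cnn1 passed the filter only with libraries of the fusion allele, so its rise was partly built into the selection. The part of such cells in the result was not tested, and fewer cells of a type and less RNA per cell cannot be told apart in bulk samples. Of 13 other myosin heavy chain genes, 3 were tested and the other 10 never exceeded 8. Myh9 and Myh10, the non-muscle myosins, fell in KI against WT by 1.00 and 1.02 on the log2 scale (adjusted p = 0.000197 and 6.35e-05 with limma), and Myh7b went from 6, 2 and 4 to 62, 61 and 57. Like Myh11, Myh7b was under 10 in each WT library and passed the filter only through the groups with the fusion allele, so its difference from WT was built into the selection and is given without a test. Next to Myh11 on chromosome 16, Nde1, a gene of the opposite strand that lies 1607 bases away, differed by 0.04 in KI against WT (adjusted p = 0.63). Fopnl, the neighbour on the other side, was lower by 0.58 (adjusted p = 1.85e-05), from between 1911 and 2046 in WT to between 1313 and 1352 in KI.

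Runx1 (ENSMUSG00000022952, chromosome 16, 92601466 to 92826149) stood at 3036, 2841 and 2929 in the WT libraries, at 6342, 5794 and 7589 in those of KI, and at 4645, 4452 and 4475 in those of KI_Chd7del. The 3 groups did not overlap, with WT lowest, KI_Chd7del between and KI highest. The log2 difference was 1.15 in KI against WT (adjusted p = 6.04e-06, SE 0.09), 0.62 in KI_Chd7del against WT (adjusted p = 0.000439) and -0.53 in KI_Chd7del against KI (adjusted p = 0.00179 with limma). The 2 comparisons against WT share the same WT libraries.

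Runx2 (ENSMUSG00000039153, chromosome 17, 44495987 to 44814797) stood at 1217, 999 and 1321 in the WT libraries, at 2220, 2466 and 2914 in those of KI, and at 2615, 1917 and 1991 in those of KI_Chd7del. Both groups with the fusion allele lay above WT and overlapped with each other. Runx2 rose by 1.10 in KI (SE 0.15, adjusted p = 0.000199) and by 0.88 in KI_Chd7del (adjusted p = 0.00129), and the difference between the 2 of -0.23 did not pass limma's test (SE 0.15, adjusted p = 0.257). For osteoblasts, the cells for which Runx2 is best known, the sum of 7 markers ran from 955 to 1246 for WT, 1072 to 1205 for KI and 900 to 1493 for KI_Chd7del. Of the 4 osteoblast markers tested, Alpl and Spp1 were higher in KI against WT, Col1a1 and Col1a2 were lower, and Sp7, Bglap and Ibsp did not exceed 14 in any library. Plasmacytoid dendritic cell markers summed to 3073 to 3402 for WT, 5134 to 5674 for KI and 5478 to 7414 for KI_Chd7del. Of these 6 markers 5 were higher and 1, Spib, was lower in KI against WT, and 3 were higher and 0 lower in KI_Chd7del against KI. The part of either cell type in the result was not tested.

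Runx3 (ENSMUSG00000070691, chromosome 4, 135120652 to 135177990) stood at 1631, 1737 and 1588 in the WT libraries, at 999, 770 and 856 in those of KI, and at 788, 1258 and 1209 in those of KI_Chd7del. All libraries with the fusion allele lay below WT, and KI_Chd7del library 1 lay within the KI range while the other 2 lay above it. Runx3 fell by 0.92 on the log2 scale in KI (SE 0.17, adjusted p = 0.00123) and by 0.64 in KI_Chd7del (adjusted p = 0.0125), the latter call being lost under scaling to the column total (-0.39, adjusted p = 0.0757). The difference between KI_Chd7del and KI, 0.29, did not pass limma's test (adjusted p = 0.202). Without KI_Chd7del library 1 it was 0.50 and passed (adjusted p = 0.00704). The summed level of 8 T and NK cell markers, cells in which Runx3 is active, was 8753 to 9449 for WT, 2250 to 4173 for KI and 4440 to 6004 for KI_Chd7del. Most of that sum was Nkg7 (7721 to 8646 in WT and 1633 to 2953 in KI). Of the 8 genes 1 was higher (Cd8a) and 2 were lower (Nkg7 and Ncr1) in KI against WT. The T cell gene Cd3e, at 45 to 112 in WT and 97 to 182 in KI, overlapped and did not pass (adjusted p = 0.114 with limma). The part of these markers in the result was not tested.

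Within the RUNX family the share of Runx1 was higher and that of Runx3 lower in both groups with the fusion allele than in WT. Which of the 2 led in WT depends on the transcript length used: Runx3 with the union of exons, as given here, and Runx1 with the longest coding transcript. Per kilobase, Runx3 made up 46.7% ± 2.78 of the family sum in WT, 17.5% ± 2.70 in KI and 25.8% ± 6.17 in KI_Chd7del (SD, n = 3). Runx1 made up 34.5% ± 0.688, 54.1% ± 1.55 and 44.8% ± 1.02, and no 2 of the 3 groups overlapped in that share. Such a share does not depend on the scaling between libraries. For 3 against 3 libraries the exact 2-sided permutation test cannot go below 0.1, which is its value for each pair of groups in the Runx1 share (adjusted p = 0.114 over 24 such tests). The sum of the 3 RUNX genes was 35.9% ± 1.10 of the Cbfb level per kilobase in WT, 53.3% ± 3.46 in KI and 44.7% ± 1.87 in KI_Chd7del. A higher RUNX sum thus stood against about the same Cbfb value, in which the normal allele and the fusion are not separated. This ratio was added after the values had been seen, and it depends on the transcript length used.

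**Figure D2:**
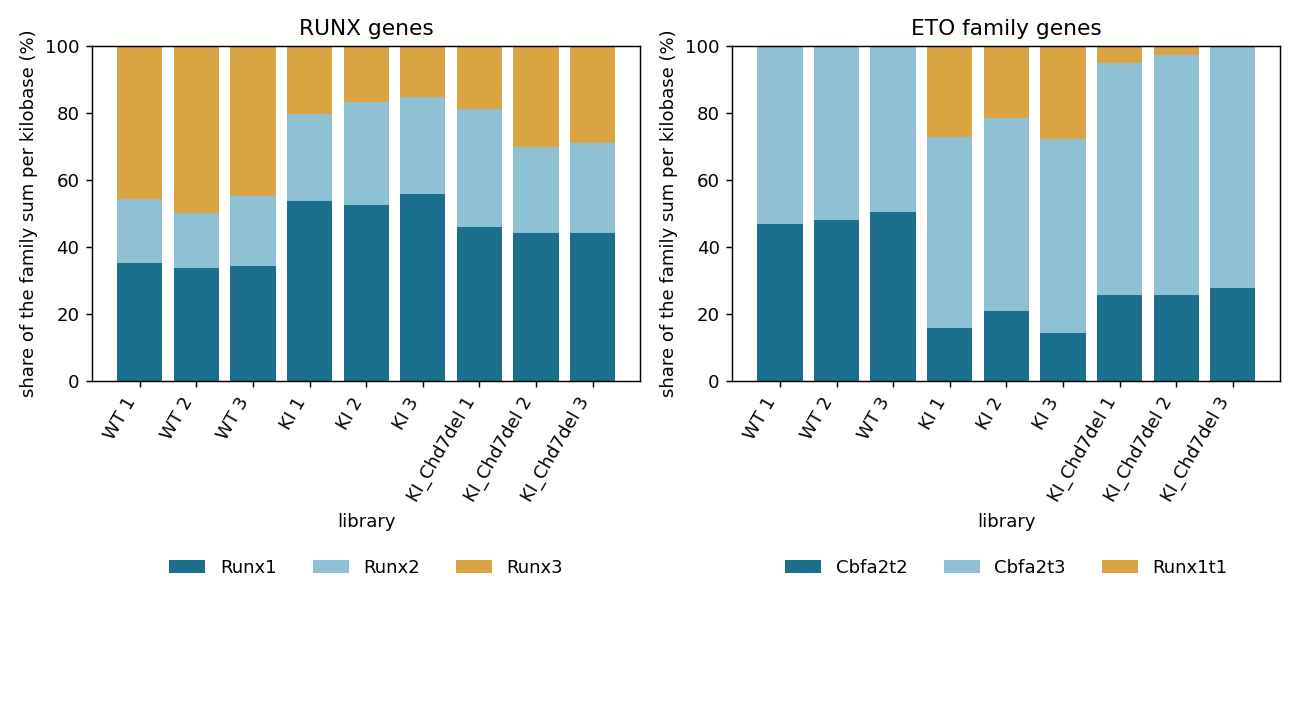
Share (%) of each gene in the summed level per kilobase of the RUNX genes (left) and the ETO family (right), 1 bar per library. Runx3 takes 44.7% to 49.8% of the RUNX sum in WT and 15.1% to 20.4% in KI, and Runx1t1 takes 21.5% to 27.9% of the ETO sum in KI and at most 5.13% in KI_Chd7del.

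Runx1t1 (ENSMUSG00000006586, chromosome 4, 13743436 to 13893649), the ETO gene that is fused to RUNX1 in the other core binding factor leukaemia, had values of 5, 5 and 6 in WT. In KI it had 2048, 1307 and 2429, and in KI_Chd7del 225, 117 and 18. The 3 groups did not overlap, and KI_Chd7del spread over more than a factor of 10 among its libraries. The log2 difference was 8.21 in KI against WT (SE 0.74). It was -4.55 in KI_Chd7del against KI (SE 0.74, adjusted p = 0.00175 with limma), a mean that was 16.1-fold higher in KI. Against WT, KI_Chd7del differed by 3.66 (SE 0.74), and by 3.76 with limma-voom. Runx1t1 passed the filter only through the groups with the fusion allele. Its differences from WT were thus built into the selection, and their p-values are not given. Without KI_Chd7del library 3, which was the lowest, the difference of KI_Chd7del from WT was 4.69 and that from KI was -3.52. Without library 1 they were 2.91 and -5.30, and both of these differences from KI passed limma's test. Since WT values of 5 and 6 leave little above 0, the size of the change from WT depends on the pseudocount: with 16 it was 6.46 in KI and 2.27 in KI_Chd7del.

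Cbfa2t3 (ENSMUSG00000006362, chromosome 8, 122625141 to 122699109), a corepressor known from complexes with TAL1 and GATA factors in erythroid and stem cells, stood at 1274, 1133 and 1101 in the WT libraries, at 4549, 3668 and 5292 in those of KI, and at 3186, 3163 and 3046 in those of KI_Chd7del. The 3 groups did not overlap and took the same order as for Runx1. Its rise over WT was 1.93 for KI (SE 0.12, adjusted p = 1.88e-06) and 1.42 for KI_Chd7del (adjusted p = 2.95e-05), and it was lower by 0.51 in KI_Chd7del than in KI (adjusted p = 0.00884 with limma).

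Cbfa2t2 (ENSMUSG00000038533, chromosome 2, 154436481 to 154539356), the third of the family, moved little. It stood at 1171, 1086 and 1171 in the WT libraries, at 1313, 1387 and 1364 in those of KI, and at 1228, 1185 and 1220 in those of KI_Chd7del. Its rise in KI over WT was 0.25 (SE 0.05, adjusted p = 0.00359), and KI_Chd7del did not pass the test against WT (0.08, adjusted p = 0.227) except with values scaled to the column total (0.33, adjusted p = 0.00231). In KI_Chd7del against KI it passed narrowly (-0.16, SE 0.05, adjusted p = 0.0405), and that call was lost under 14 of 21 alternatives (adjusted p from 0.0348 to 0.246 over all 21). With the replicate number as a block its adjusted p was 0.0723.

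The makeup of the ETO family thus differed in each group. In WT it was almost wholly Cbfa2t3 (51.2% ± 1.89 of the sum per kilobase) and Cbfa2t2 (48.5% ± 1.86), with Runx1t1 at 0.247% ± 0.0323 (SD, n = 3). Which of the first 2 led depends on the transcript length used. With the longest coding transcript, Cbfa2t2 stood above Cbfa2t3 in WT (188 ± 8.07 against 153 ± 12.0 per kilobase). In KI, Runx1t1 took 25.5% ± 3.44 and Cbfa2t2 stood at 17.1% ± 3.47, while Cbfa2t3 stood at 57.4% ± 0.342. In KI_Chd7del, Cbfa2t3 took 70.7% ± 1.43, Cbfa2t2 26.5% ± 1.15 and Runx1t1 2.79% ± 2.34. No 2 groups overlapped in any of these 3 shares. Between KI_Chd7del and KI each exact permutation p was the smallest possible, 0.1 (adjusted p = 0.114 over 24 tests). Runx1t1 passed the filter only through the groups with the fusion allele, so its share against WT was built into the selection. The 3 shares of a library add up to the whole, so those of Cbfa2t2 and Cbfa2t3 depend on that of Runx1t1. No p-value against WT is therefore given for these shares. The Cbfa2t2 share was lower in KI than in WT, while the level of Cbfa2t2 was higher by 0.25 on the log2 scale.

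**Figure D3:**
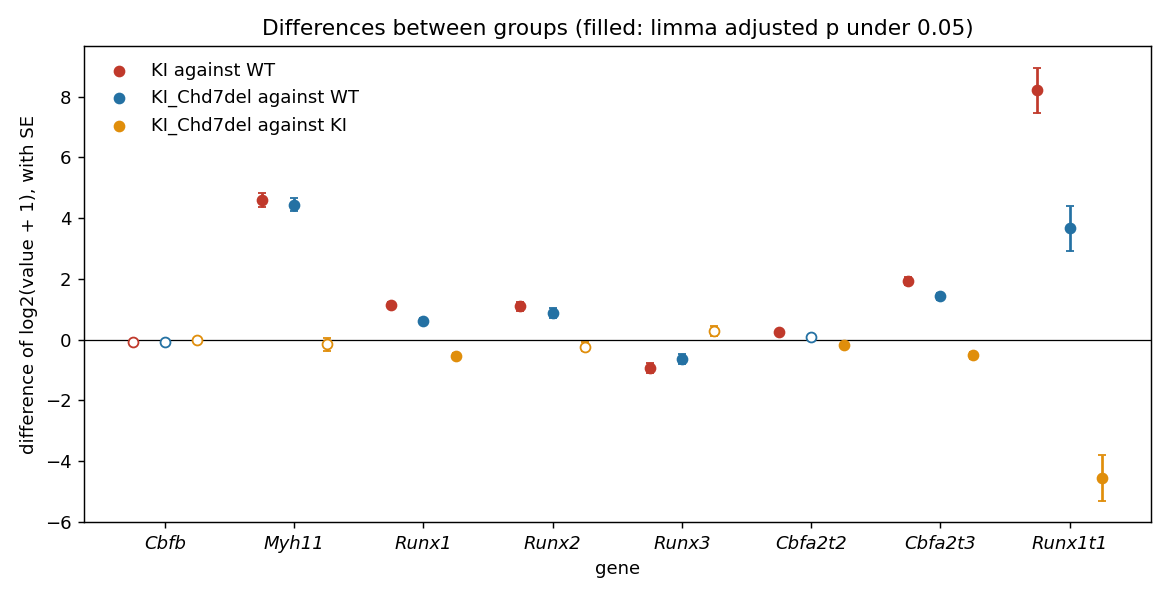
Difference of log2(value + 1) between groups for the 8 genes, with its SE from limma; filled points passed an adjusted p of 0.05 and open points did not. Runx1t1 has the largest differences of the 8, 8.21 in KI against WT and -4.55 in KI_Chd7del against KI, and the 3 points of Cbfb lie near 0. The differences of Myh11 and Runx1t1 from WT were built into the selection, so their filled points against WT do not count as tests.

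These counts have to be read against how many genes differed in all. In KI against WT, 6 members were higher and 1 was lower by limma's test, of which Myh11 and Runx1t1 were bound to be higher by the filter. Among all tested genes, 31.8% were higher and 27.2% lower, 58.9% in all. In KI_Chd7del against KI, 4 of 8 members were lower (Runx1, Runx1t1, Cbfa2t2 and Cbfa2t3) and none was higher, or 3 without the fragile call of Cbfa2t2. The background was 22.9% lower and 17.5% higher, or 40.4% in all, and the share of members called is close to that background. In KI_Chd7del against WT, 5 were higher and 1 was lower against a background of 24% and 24.3%, or 48.4% in all. The higher include Myh11 and Runx1t1, which passed the filter only through the groups with the fusion allele. The call of Runx1t1 was lost with limma-voom. Without overlap between libraries of the groups compared were 7, 4 and 7 members in these comparisons, against 67.6%, 52% and 57.6% of all genes. By direction they lay higher for 6, 0 and 6 members and lower for 1, 4 and 1, against 35.9%, 23.8% and 28.9% of all genes higher and 31.8%, 28.2% and 28.8% lower. The balance of all calls depended on the scaling: higher genes made up 53.9% of the calls in KI against WT, 74.2% under scaling to the column total, by which the median over all genes went from 0.02 to 0.25, and 45% with upper-quartile factors. Higher genes made up 43.4% of the calls in KI_Chd7del against KI, and 56.3% with upper-quartile factors and 56.9% with quantile normalisation. In KI_Chd7del against WT they made up 49.7%, and 78.7% under scaling to the column total, with a median that went from 0.02 to 0.26.

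The order of the members by level per kilobase also changed between groups. In WT it ran from Cbfb at 1973 ± 87.8 normalised units per kilobase to Runx3 (330.2 ± 15.3) and Runx1 (244 ± 8.12), each above the next in all libraries (SD, n = 3). Cbfa2t3, Runx2 and Cbfa2t2 followed at 132 to 140 and overlapped. In KI, Cbfb at 1888 ± 86.0 was followed by Runx1 (547 ± 76.5) and Cbfa2t3 (538 ± 97.1), which overlapped, and then by Runx2, Runx1t1 and Runx3, of which neighbours overlapped, and by Cbfa2t2, which overlapped with Runx3. Myh11 was last at 25.8 ± 2.84. In KI_Chd7del, Runx1 (376 ± 8.77) and Cbfa2t3 (374 ± 8.97) again came next to Cbfb and overlapped, and Runx1t1 (15.1 ± 13.0) overlapped with Myh11 (23.1 ± 1.51) at the bottom. The length used was the union of all annotated exons, which for Runx1 is 12025 bases and for its longest coding transcript 5861. With the longest coding transcript in place of the union, Runx1 stood above Runx3 in WT (501 ± 16.7 against 425 ± 19.7) and above Cbfa2t3 in all KI libraries.

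Markers of several blood cell types moved with these genes. Markers of the labelled progenitors summed to 45217 to 52141 in WT, 35398 to 39893 in KI and 43234 to 53135 with Chd7 floxed. Of these 6 genes 2 were higher and 3 lower in KI against WT, and 4 were higher and 1 lower in KI_Chd7del against KI. Kit, for which the cells were selected, was lower in KI than in WT by 1.09 on the log2 scale (adjusted p = 3.88e-05 with limma) and higher in KI_Chd7del than in KI by 1.07 (adjusted p = 0.000212). Monocyte markers summed to 19952 to 23036 for WT, 124425 to 138534 for KI and 44719 to 46940 for KI_Chd7del, the same order of groups as for Runx1, Cbfa2t3 and Runx1t1. Mast cell markers, at 6019 to 7524, 50933 to 88435 and 32973 to 46972, took that order too. Erythroid markers went from 17347 to 22446 in WT up to 52778 to 79879 in KI and down to 7422 to 15877 in KI_Chd7del, below WT. Late neutrophil markers went the other way, with WT at 4067457 to 5061109, KI at 134116 to 629217 and KI_Chd7del at 1161857 to 1527153. Within KI, library 2 had the lowest values of Runx1, Cbfa2t3 and Runx1t1, the lowest sums of monocyte, mast cell and erythroid markers and the highest of late neutrophil markers. Within KI_Chd7del, Runx1t1 (225, 117 and 18 in libraries 1, 2 and 3) and the erythroid sum (15877, 11631 and 7422) took the same order, and Cbfa2t3 (3186, 3163 and 3046) varied little. The monocyte sum (46253, 46940 and 44719) and the mast cell sum (38975, 46972 and 32973) did not take that order. The megakaryocyte sum (2497, 3803 and 4335) took the reverse. The part of these markers in the results was not tested. By single markers, 5 of 6 monocyte and 5 of 6 mast cell genes were higher in KI against WT, with 1 of each lower, 3 of 7 erythroid genes were higher and 2 lower, and 8 of 8 late neutrophil genes were lower. Among the higher mast cell genes, Tpsb2 (2, 1 and 1 in WT) and Cma1 (7, 14 and 11) passed the filter only with libraries of the fusion allele. In KI_Chd7del against KI, 5 of 6 monocyte genes, 4 of 6 mast cell genes and 6 of 7 erythroid genes were lower, and 8 of 8 late neutrophil genes were higher. Megakaryocytes, a lineage that needs Runx1, gave overlapping sums of 1916 to 2890 in WT, 2362 to 3859 in KI and 2497 to 4335 with Chd7 floxed. Of their 6 markers 4 were lower and 1 higher in KI against WT, and 5 were higher in KI_Chd7del against KI.

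**Figure D4:**
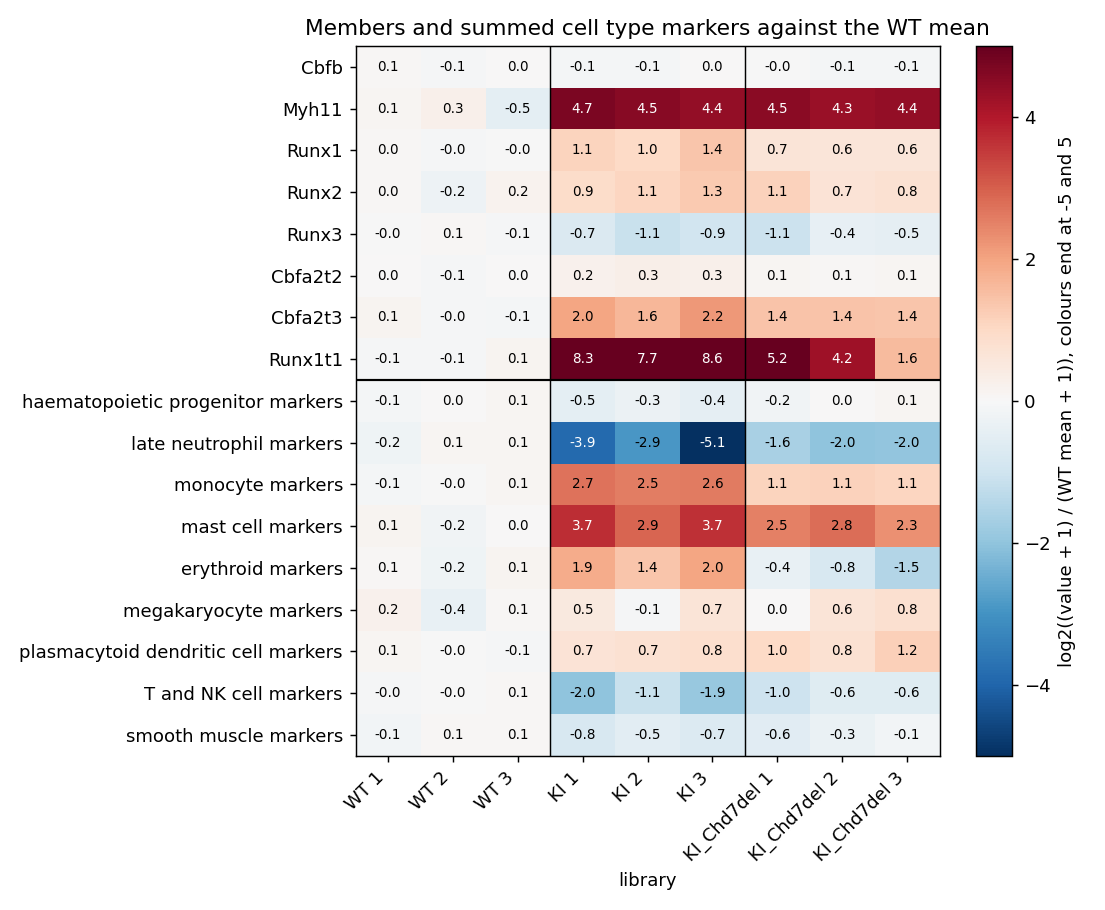
Each library's log2 ratio to the WT mean, with 1 added to both, for the 8 genes (above the line) and for summed marker lists of cell types (below it); columns are libraries and colours end at -5 and 5. Runx1t1, the erythroid sum and the monocyte sum are high in KI and lower in KI_Chd7del, while Myh11 is alike in both.

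The partners and cofactors of RUNX proteins were followed through a list of 20 genes, of which 19 were tested and Prmt1 was not analysed here. In KI against WT 10 were higher and 5 lower, beside 31.8% and 27.2% of all tested genes, with a median log2 difference of 0.34 against 0.02 over all of them. Gata2, a stem and mast cell factor, rose by 3.91 (adjusted p = 5.42e-07 with limma), from 1284, 955 and 983 to 17177, 13086 and 18135. Hipk2, a kinase that phosphorylates RUNX1, rose by 2.08 (adjusted p = 2.46e-06) and Kat6a, an acetyltransferase that binds RUNX1, by 0.72 (adjusted p = 2.87e-06). Spi1, the myeloid factor PU.1, fell by 0.84 (adjusted p = 7.69e-06). Yap1, counted among the higher, was at 8, 5 and 6 in WT and passed the filter only through the groups with the fusion allele. Its difference from WT was thus built into the selection, here and in KI_Chd7del. In KI_Chd7del against KI 3 were higher and 7 lower, beside 17.5% and 22.9% of all tested genes (median 0.06 against -0.01), a count of higher genes that became 8 with upper-quartile factors and 9 with quantile normalisation. Hipk2 was lower by 1.40 (adjusted p = 0.00013), Gata1, the erythroid factor, by 1.09 (adjusted p = 0.000782) and Kat6a by 0.29 (adjusted p = 0.0018), and Erg, a stem cell ETS factor, was higher by 0.74 (adjusted p = 0.00142). In KI_Chd7del against WT 10 were higher and 4 lower (median 0.17 against 0.02), beside 24% and 24.3% of all tested genes. Gata2 rose by 3.28 and Kmt2a, the histone methyltransferase MLL1, by 1.19, while Spi1 and Fli1, another ETS factor, fell by 0.73 and 0.58.

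Corepressors that RUNX, the fusion or ETO proteins are known to bind were followed through 17 genes, all tested. In KI against WT, 10 were lower and 4 higher (median -0.28), beside 27.2% and 31.8% of all tested genes. Under scaling to the column total 6 were lower and 6 higher. Tle3, a Groucho corepressor, fell by 1.29 (adjusted p = 5.16e-07 with limma), whereas its relative Tle1 rose by 1.37 (adjusted p = 1.89e-05). The histone deacetylase genes Hdac2 and Hdac3, subunits of such complexes, fell by 0.40 (adjusted p = 4.36e-05) and 0.35 (adjusted p = 6.56e-05). With Chd7 floxed, 7 were higher than in KI and none was lower, beside 17.5% and 22.9% of all tested genes, with 1 lower under 3 alternatives, and 4 higher without KI library 3 or without KI_Chd7del library 3. Hdac2 was higher by 0.33 (adjusted p = 0.000544), Gfi1, a repressor of granulocyte precursors, by 1.25 (adjusted p = 0.00193), Zbtb16 by 0.93 (adjusted p = 0.00561) and Hdac8, known to bind the fusion protein, by 0.36 (adjusted p = 0.00598). Hdac8 stood at 561, 519 and 546 in the WT libraries, at 562, 517 and 501 in those of KI and at 689, 637 and 703 in those of KI_Chd7del. In KI_Chd7del against WT 6 were higher and 7 lower (median -0.19), beside 24% and 24.3% of all tested genes, the lower being 2 with values scaled to the column total and 3 with quantile normalisation. Tle3 fell by 1.18, and Tle1 and Tle2 rose by 1.29 and 1.81. Tle2, at 10, 19 and 9 in WT, passed the filter only with libraries of the fusion allele. Its place among the higher genes, here and in KI against WT, was thus partly built into the selection.

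Of 23 genes known as RUNX targets in blood, 21 were tested, and Csf2 and Il3 were at 3 or less. The list does not mark which of them RUNX raises and which it lowers, so counts by direction do not measure RUNX activity. In KI against WT 4 were higher and 10 lower (median -0.39), beside 31.8% and 27.2% of all tested genes, and 6 were higher and 8 lower under scaling to the column total. Csf1r, the receptor of monocyte growth factor, rose by 2.68 (adjusted p = 5.38e-07 with limma) and Cdkn1a, the cell cycle inhibitor p21, by 2.28 (adjusted p = 5.67e-06). Spi1 (also counted above as a cofactor) fell by 0.84 and Prtn3, a granule protease, by 1.25 (adjusted p = 1.45e-05). Between KI_Chd7del and KI, 5 were higher in the former and 3 lower (median 0.26), beside 17.5% and 22.9% of all tested genes. Pf4, a platelet granule chemokine, stood at 940, 524 and 803 in the WT libraries, at 124, 83 and 135 in those of KI and at 390, 660 and 869 in those of KI_Chd7del, higher by 2.43 in the last than in KI (adjusted p = 0.000625). Cdkn1a and Csf1r were lower by 1.59 (adjusted p = 0.00022) and 1.13 (adjusted p = 0.000297). In KI_Chd7del against WT 7 were higher and 8 lower (median -0.08), beside 24% and 24.3% of all tested genes, with Csf1r higher by 1.56 and Myh10 and Nfe2, a platelet and red cell factor, lower by 1.12 and 0.64. Several of these genes are themselves markers of monocytes, granulocytes and megakaryocytes, and their levels moved with those markers; the part of those cells in these levels was not tested.

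How far reads could be shared with other genes was checked on the annotated transcripts. No stretch of 50 bases was common to 2 members, so a read of that length has 1 source among the members. Of the 50-base stretches of Cbfa2t2, 7.2% also occur elsewhere, mostly in its pseudogene Cbfa2t2-ps1, and of those of Runx2, 5.66%, mostly in the antisense gene Runx2os1. The share was 2.92% for Cbfa2t3, with the antisense gene Gm10612, and 0 to 1.13% for the other 5. The strand setting of the libraries is not given in the sources used here, and antisense reads cannot be told apart. Runx2os1 was at 9 to 35 and Gm10612 at 19 to 72 in each library, small beside Runx2 and Cbfa2t3. The reverse, reads of Runx2 or Cbfa2t3 among the values of these antisense genes, was not tested.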

How the data were processed

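The deposited table gives 1 value per gene for 9 libraries. Its unit is a score: read numbers that the authors scaled by a factor for each library and rounded, as gaps among the low values show. The tools named, per the submitters' processing notes, are STAR 2.4, RSEM, DESeq2 and CASAVA 1.8.2, without their roles, and the build is GRCm38. The annotation release is not given in the sources used here. Symbols, positions and lengths came from GENCODE M21 (42462 of 43629 identifiers had a symbol).

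Since the values are not raw counts, the count test named first in the design was not run. The design's other test was used: log2(value + 1) of all 9 libraries was fitted by group in limma 3.58.1 (trend on), 2-sided, at an adjusted p of 0.05. A fold change on this scale understates changes of low genes. The fit and the search for size factors were tested on simulated data. Members and lists were chosen with earlier results of these data known. Genes named are the members, the 4 smallest adjusted p per list and comparison, the tested neighbours and, per member, the 2 genes most alike over 9 libraries with a mean of at least 100. Some genes under this rule are not reported here. Cell type markers, and genes named to explain a count, lie outside this rule and were named after their values had been seen.

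Alternatives were other filters, pseudocounts of 4 and 16, 4 other scalings, limma-voom, no trend, fits of 2 groups, a replicate block and each library left out. Software was R 4.3.3 and Python 3.11.15 with scipy 1.17.1.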

Additional observations from a re-analysis of the deposited data

How the results depend on the processing

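The number of members called was within 1.5 times the reported one in all 63 fits of the 3 comparisons (7 or 8 in KI against WT, 3 to 5 in KI_Chd7del against KI, 5 to 7 in KI_Chd7del against WT). With the replicate number as a block it was 7, 3 and 6; same-numbered libraries of different groups correlated between -0.153 and 0.109 in their deviations from the group means, so the numbers do not pair them. The direction of Cbfb turned with the column total (0.166 in KI against WT, 0.0109 in KI_Chd7del against KI, 0.177 in KI_Chd7del against WT), with quantile normalisation (0.0912 in KI_Chd7del against KI, 0.0618 in KI_Chd7del against WT) and, in KI_Chd7del against KI, with upper-quartile factors (0.0685), relative log expression factors (0.0125) and without KI library 3, KI_Chd7del library 2 or KI_Chd7del library 3 (-0.0419 to 0.0305 over all libraries left out in turn). No other member or named list gene reversed under any alternative run. With the longest coding transcript in place of the exon union, the difference between KI and WT moved to 6.12 percentage points for the Runx2 share and to -25.4 for the Runx3 share, because the lengths differ. The RUNX sum as a percentage of Cbfb then differed by 29.7 points in KI against WT, -15.0 in KI_Chd7del against KI and 14.7 in KI_Chd7del against WT. DESeq2 needs raw counts and was not run.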

Other observations

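The genes whose pattern over the 9 libraries was most like that of a member are given as a description, since the libraries fall into 3 groups and any gene that separates them scores high. For Runx1t1 they were Phlda3, a p53 target (Pearson r = 0.998), which stood at 41, 41 and 39 in the WT libraries, at 734, 576 and 812 in those of KI and at 245, 198 and 88 in those of KI_Chd7del, and Unc5cl (r = 0.997). For Cbfa2t3 they were Zfp521, a zinc finger factor of stem and progenitor cells (r = 0.997), at 81, 60 and 56, then 775, 457 and 805, then 341, 384 and 378, and Dag1, dystroglycan (r = 0.997). For Runx1 they were Lxn, latexin (r = 0.996), and Disp1 (r = 0.994), and for Myh11 Ptk2, focal adhesion kinase (r = 0.994), and Chd3, a relative of Chd7 (r = 0.994). Chd3 stood at 1310, 1268 and 1092 in the WT libraries, at 4900, 4933 and 5263 in those of KI and at 5891, 5363 and 5027 in those of KI_Chd7del. For Runx2 they were Mettl17 (r = 0.983) and Zfp994 (r = 0.976), for Runx3 Eif3d (r = 0.983) and Sfxn1 (r = 0.983), for Cbfa2t2 Acvr2a (r = 0.978) and Impact (r = 0.972), and for Cbfb Med9 (r = 0.960) and Zfp119b (r = 0.921).

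Genes that overlap a member, and the nearest tested gene on each side of it, differed in whether they took its order of groups. Next to Cbfa2t3, Acsf3 took the member's order, at 488 to 576 in WT, 684 to 744 in KI and 619 to 626 with Chd7 floxed, and was higher in KI against WT by 0.44 (adjusted p = 0.00112 with limma). Trappc2l, on its other side, was lower in KI against WT by 0.41 (adjusted p = 0.0029). Gm10612, antisense within Cbfa2t3, was higher in KI against WT by 1.22 (adjusted p = 0.00487) and differed by -0.75 in KI_Chd7del against KI (adjusted p = 0.0632). The 246 stretches of 50 bases that Cbfa2t3 shares with other genes all occur in Gm10612. The part of Cbfa2t3 reads in its values was not tested. Supt3, a subunit of a histone acetyltransferase complex whose gene overlaps Runx2 on the other strand, stood at 1016, 1240 and 1131 in the WT libraries, at 602, 666 and 571 in those of KI and at 799, 744 and 911 in those of KI_Chd7del. It was lower in KI against WT by 0.88 (adjusted p = 8.38e-05 with limma) and higher in KI_Chd7del against KI by 0.41 (adjusted p = 0.0126), while Runx2 rose in KI. Gm26626, an antisense gene within Runx1 that also took its order of groups, stood at 10, 2 and 2 in the WT libraries, at 19, 30 and 36 in those of KI and at 14, 17 and 11 in those of KI_Chd7del. It passed the filter only with libraries of the fusion allele, so its difference from WT was partly built into the selection. The 57 stretches of 50 bases that Runx1 shares with other genes all occur in Gm26626. The part of Runx1 reads in its values was not tested. Rcan1 and Setd4, the nearest tested genes on either side of Runx1 at 130599 and 757308 bases, did not pass in KI against WT (-0.18 and -0.19, adjusted p = 0.184 and 0.264). Clic4, next to Runx3, was higher in KI against WT by 0.56 (adjusted p = 0.000209) and lower in KI_Chd7del against KI by 0.68 (adjusted p = 0.000285), opposite in sign to the differences of Runx3. The nearest tested genes on either side of Runx1t1, the pseudogenes Gm11826 and Gm11824 at 260244 and 276417 bases, did not pass in KI against WT (adjusted p = 0.695 and 0.0507).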
